A study of Mus musculus with 8 samples.

Results

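The genes described here encode the laminins of the heart field and the proteins that link them into a basement membrane. They were chosen by symbol, as the rows of the deposited count table for *Lama1*, *Lama4*, *Lama5*, *Lamb1*, *Lamb2*, *Lamc1*, *Nid1*, *Nid2*, *Hspg2* and *Agrn*. All 10 were found among the 48526 genes of the table, and all 10 were among the 9744 genes that passed the filter on low counts, with at least 20 normalized counts in each of the 8 libraries. The libraries come from 4 wild-type male C57bl6/J mouse embryos at stage E8.5f, named L29-3, L43-5, L46-8 and L49-3, and each embryo gave a left and a right heart field, giving 4 left and 4 right samples paired by embryo. No allele, transgene or treatment separated them. Each piece was cut out of the whole embryo without its heart and can hold other cells beside cardiac progenitors. The study bisected this tissue at the midline to screen for genes expressed differently on the left and right of cardiac progenitors.

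Laminins are cross-shaped trimers of an alpha, a beta and a gamma chain. They polymerize at the cell surface, where integrins and dystroglycan anchor them, and so lay down the first sheet of a basement membrane. Nidogens bind the gamma chain and type IV collagen. Perlecan and agrin are large heparan sulfate proteoglycans that join the laminin sheet to collagen, to growth factors and to dystroglycan. In the early embryo such membranes line the epithelium of the dorsal pericardial wall, the endoderm and the neural tube, and surround vessels.

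The promoters of these genes differ in base composition. RefSeq entries of build GRCm38.p6 were available for 6 of the 10 genes, and 4 are shown, each 300 bases read 5′ to 3′ on the strand of the gene. *Lamb1* and *Lamb2* were taken because they are the alternative beta chains and were counted at very different levels, and *Agrn* and *Nid1* because they had the smallest and the largest spread over the 8 libraries. Capitals mark GC boxes (GGGCGG) and the TATA box (TATAAA), on either strand, with overlapping matches joined.
Lamb1, plus strand, chr12:31265043-31265342: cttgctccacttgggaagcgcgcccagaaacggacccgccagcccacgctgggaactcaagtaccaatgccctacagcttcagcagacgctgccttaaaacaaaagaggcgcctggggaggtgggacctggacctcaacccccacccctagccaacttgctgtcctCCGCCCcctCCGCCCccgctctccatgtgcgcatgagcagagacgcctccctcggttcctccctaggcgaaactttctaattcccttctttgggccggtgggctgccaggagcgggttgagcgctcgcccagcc
Lamb2, plus strand, chr9:108479612-108479911: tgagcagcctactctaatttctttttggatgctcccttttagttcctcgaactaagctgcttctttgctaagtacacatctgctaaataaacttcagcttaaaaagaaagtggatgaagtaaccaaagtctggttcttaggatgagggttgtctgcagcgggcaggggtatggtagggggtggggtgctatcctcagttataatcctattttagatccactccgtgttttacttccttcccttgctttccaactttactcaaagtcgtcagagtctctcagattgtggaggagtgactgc
Agrn, minus strand, chr4:156197439-156197738: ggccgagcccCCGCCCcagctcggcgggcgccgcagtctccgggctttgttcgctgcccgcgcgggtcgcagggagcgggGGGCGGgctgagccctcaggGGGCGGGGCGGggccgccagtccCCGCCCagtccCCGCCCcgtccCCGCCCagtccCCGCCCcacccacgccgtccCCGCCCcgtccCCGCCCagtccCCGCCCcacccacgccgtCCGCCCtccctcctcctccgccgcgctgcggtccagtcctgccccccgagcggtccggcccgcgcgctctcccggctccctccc
Nid1, plus strand, chr13:13437352-13437651: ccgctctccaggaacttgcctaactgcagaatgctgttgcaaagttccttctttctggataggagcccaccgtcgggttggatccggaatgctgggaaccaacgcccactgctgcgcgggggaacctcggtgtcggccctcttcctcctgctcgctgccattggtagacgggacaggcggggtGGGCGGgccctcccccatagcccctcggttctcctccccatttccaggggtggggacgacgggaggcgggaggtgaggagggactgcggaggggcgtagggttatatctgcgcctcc

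The *Agrn* window was the richest in G and C, at 83.3%, and held 42 CpG and 12 GC boxes. The *Nid1* window held 64.7% G and C, 20 CpG and 1 GC box, and the *Lamb1* window 63.7%, 18 CpG and 2 GC boxes. The *Lamb2* window stood at 44.0%, with 4 CpG and 0 GC boxes. Of the windows not shown, that of *Hspg2* held 5 GC boxes and that of *Lama5* 4. A relation of these letters to level or spread was not tested. Over all 32851 promoter entries the median was 52.7% G and C with 7 CpG, and a GC box was found in 35.7% and a TATA box in 13.6%. A motif of FOXH1 (AATCCACA), the DNA-binding partner of SMADs in Nodal signaling, was found in 0.855% of the entries. Neither it nor the TATA box occurred in the 6 windows of these genes. A match describes letters in these windows and not a site that was measured.

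The total count after removal of duplicates ranged from 1147446 to 3520753, so that a count of 0 allowed up to between 0.852 and 2.61 CPM (counts divided by the library total, on a fixed scale), counting error only. The 2 libraries of L49-3 had the lowest totals and stood apart in tissue markers. Second heart field markers, 8 of 8 tested, summed to between 372 and 587 CPM in the 8 libraries, and each of the 8 was counted in every library. Markers of the juxta-cardiac field (3 of 3 tested) summed to 25.9 CPM on the left and 28.0 on the right of L49-3, against 110.1 to 229 in the other 6 libraries. Markers of yolk sac endoderm (6 of 8 tested) summed to 14.2 and 19.9 CPM in L49-3, with *Afp*, *Apoa4* and *Amn* at 0 in both of its libraries, and to between 122 and 661 in the other 6, the lowest of these being the left of L29-3. Of this list, *Apoa1* passed the study's threshold with the right higher. Markers of cardiomyocytes (7 of 8 tested) ranged from 360 CPM on the left of L49-3 to 2748 on the left of L29-3. Neural tube markers (5 of 6 tested) ranged from 61.4 CPM on the left of L46-8 to 367 on the right of L49-3, and *Sox1* and *Pax6* passed that threshold, also with the right higher. Primitive blood markers (0 of 5 tested) reached at most 17.2 CPM. In such bulk samples, fewer cells of a type and less RNA per cell cannot be told apart.

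Levels between genes were compared as CPM per kb of exon, the union of all annotated exons of a gene. On this scale *Nid2* stood highest, with a level of 49.5 ± 9.10 (SD over 4 embryo means), followed by *Agrn* with 39.5 ± 1.26 and *Lamc1* with 38.2 ± 4.53. *Lamb1* had a level of 30.5 ± 1.57 and *Hspg2* one of 25.2 ± 4.85. *Lama1* (18.1 ± 0.605) and *Lama5* (17.6 ± 1.54) lay side by side, and below them came *Nid1* (11.4 ± 3.80), *Lamb2* (7.66 ± 1.57) and *Lama4* (2.41 ± 0.670). Over the 8 libraries, the range of each gene overlapped that of the next in this order, with the exception of *Lamb2* and *Lama4*. The length used changed the order. Divided by the longest coding transcript, *Lamb1* rose to 52.3 ± 2.69, next to *Nid2* at 52.5 ± 9.65 and *Agrn* at 50.5 ± 1.61, because the exon union of *Lamb1* is 9917 bases against 5784 for that transcript. *Lama4* went to 4.82 ± 1.34 for the same reason and was still the lowest. By mean normalized count, *Agrn* ranked at percentile 95.7 of the genes tested, *Hspg2* at 95.5, *Lamc1* at 94.5 and *Lamb1* at 94.3, whereas *Lama4* ranked at 31.2.

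**Figure D1:**
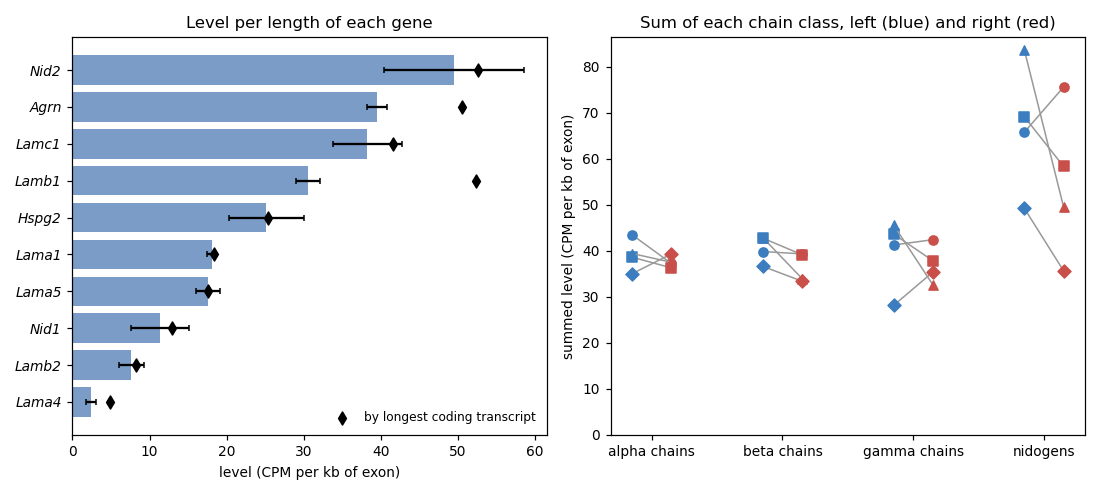
Levels per length. In the left panel, bars give the mean level of each gene in CPM per kb of the union of exons with the SD over 4 embryo means, and diamonds the mean level divided by the longest coding transcript. In the right panel, points give the summed level of the alpha, beta and gamma laminin chains and of the nidogens in each left (blue) and right (red) library, with a line joining the libraries of an embryo (circle L29-3, square L43-5, triangle L46-8, diamond L49-3). The summed alpha, beta and gamma chains lie between 28.1 and 45.6, and the nidogens between 35.6 and 83.7.

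Summed per kb of exon, the alpha chains had a mean level of 38.4 CPM per kb over the 8 libraries, the beta chains 38.5 and the gamma chains 38.4. The ratio of beta to alpha was 1.01 ± 0.0993 (SD, n = 8 libraries) and that of gamma to alpha 0.999 ± 0.137. With the longest coding transcripts, beta to alpha was 1.49 ± 0.144 and gamma to alpha 1.01 ± 0.127. The near equality of beta and alpha thus depends on the length used. The ratio of the summed nidogens to the gamma chains was 1.58 ± 0.259, and the lowest library, the right of L49-3, had 1.01, or 0.996 with the longest coding transcripts. The other laminin chains added little. None of 4 others analysed (*Lama2*, *Lama3*, *Lamb3* and *Lamc3*) passed the filter, and their highest normalized count in any library was 15.0. Of the summed level of the chains analysed, the genes described here made up 99.2% for alpha, 99.2% for beta and 99.7% for gamma.

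Among the alpha chains, *Lama1* and *Lama5* shared the level almost evenly. *Lama1*, the alpha chain typical of the earliest embryonic basement membranes, accounted for 46.7% ± 4.48 (SD, n = 4) of the alpha chain level in left samples and 47.8% ± 1.97 in right samples. The left minus right difference of -1.07 ± 2.80 percentage points gave an exact sign-flip permutation p of 0.50, two-sided, in a design whose smallest p is 0.13. *Lama5*, the alpha chain of most later epithelia, accounted for 46.3% on the left and 45.2% on the right, and *Lama4*, known from vessels and mesenchyme, for 6.51% and 5.98%.

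None of the alpha chain genes passed the test between sides. *Lama1* (chr17:67697259-67822647 of GRCm38, plus strand) had normalized read counts, raw counts divided by the DESeq2 size factor of the library, of 322 (left) and 301 (right) for L29-3, 336 and 312 for L43-5, 317 and 322 for L46-8, and 325 and 349 for L49-3. The 8 libraries spanned only 1.16-fold, with the left higher in 2 of 4 embryos. The log2 fold change of left over right was 0.02 ± 0.08 (SE), which is 1.02-fold with a 95% confidence interval from 0.908 to 1.14 (edgeR's quasi-likelihood test, adjusted p = 0.993).

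*Lama5* (chr2:180176373-180225859, minus strand) had normalized counts of 457 (left) and 364 (right) for L29-3, 345 and 347 for L43-5, 400.4 and 363 for L46-8, and 329.8 and 356 for L49-3. The left of L29-3 was the highest library, and the 4 right libraries spread far less than the left ones. Left over right, its log2 fold change was 0.09 ± 0.08 (SE), or 1.07-fold with an interval from 0.94 to 1.21, and the sides overlapped (edgeR, adjusted p = 0.987).

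*Lama4* (chr10:38965515-39110188, plus strand) was the rarest, with 18 to 111 raw counts per library. Its normalized counts were 73.8 (left) and 66.9 (right) for L29-3, 72.4 and 50.2 for L43-5, 57.0 and 38.1 for L46-8, and 27.9 and 44.9 for L49-3. The left was higher in 3 of 4 embryos, all but L49-3. The log2 fold change of 0.25 ± 0.20 (SE) corresponds to 1.19-fold with an interval from 0.882 to 1.6, and did not pass the test (edgeR, adjusted p = 0.987). Without L49-3 it was 1.33-fold with a p of 0.0401, which is past the study's threshold, a fold of 1.2 or more in either direction together with an unadjusted p no higher than 0.05.

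The beta chains were dominated by *Lamb1*, the partner found in most embryonic laminins, which accounted for 80.4% ± 3.355 (SD, n = 4) of the beta chain level in left samples and 78.3% ± 3.665 in right samples. The difference of 2.07 ± 3.30 percentage points, positive in 3 of 4 embryos, gave an exact sign-flip permutation p of 0.25, two-sided. With the longest coding transcripts the shares were 86.5% and 85.1%.

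*Lamb1* (chr12:31265234-31329644, plus strand) was the gene whose sides separated. Its normalized counts were 572 (left) and 529 (right) for L29-3, 638 and 566 for L43-5, 608 and 495 for L46-8, and 569.8 and 499 for L49-3. Each left library lay above each right library, and the left was higher in 4 of 4 embryos. In edgeR the log2 fold change was 0.19 ± 0.07 (SE), or 1.14-fold with an interval from 1.03 to 1.26 (edgeR, adjusted p = 0.987). The unadjusted p of the fit was 0.0128, and an exact sign-flip permutation test of the 4 embryo ratios gave 0.13, two-sided, the smallest value it allows. *Lamb1* therefore stayed below the fold of 1.2 that the study required. Of the 10 genes, this was the 1 gene with a higher left value in each of the 4 embryos, a pattern shown by 6.26% of all genes tested, and the 1 gene whose sides did not overlap, with the left higher, as in 1.51% of all genes. With DESeq2 the fold was the same and the unadjusted p 0.0795. Over the 11 alternative fits, the log2 fold change of *Lamb1* was positive in 11, from 0.16 to 0.22. Its unadjusted p was at most 0.05 in 10 of them. It passed the study's threshold in 0, and its lowest adjusted p was 0.86.

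*Lamb2* (chr9:108479736-108490530, plus strand), the beta chain known from neuromuscular junctions, vessels and kidney, had normalized counts of 91.6 (left) and 116 (right) for L29-3, 83.5 and 90.2 for L43-5, 107 and 76.1 for L46-8, and 57.3 and 66.5 for L49-3. Only L46-8 was higher on the left, and both libraries of L49-3 lay below the other 6. The log2 fold change was -0.04 ± 0.15 (SE), or 0.972-fold with an interval from 0.773 to 1.22 (edgeR, adjusted p = 0.996).

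*Lamc1* (chr1:153218922-153332786, minus strand), the gamma chain that nearly all laminins share and that nidogens bind, had normalized counts of 629 (left) and 646 (right) for L29-3, 667 and 579 for L43-5, 695 and 497 for L46-8, and 429 and 538 for L49-3. Embryos disagreed in direction, with the left higher in 2 of 4. Left over right, its log2 fold change was 0.09 ± 0.10 (SE), or 1.07-fold with an interval from 0.912 to 1.25 (edgeR, adjusted p = 0.987), and it was -0.03 without L46-8.

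**Figure D2:**
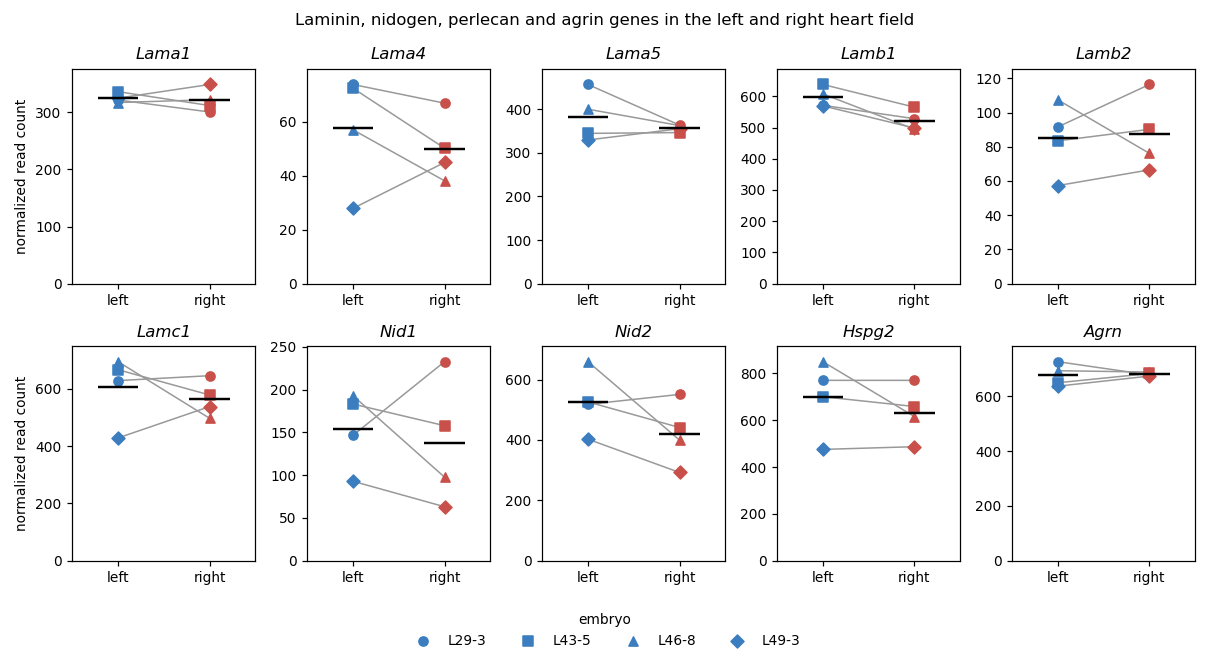
Normalized read count of each gene, 1 panel per gene, for left libraries (blue) and right libraries (red), with a line joining the libraries of an embryo and a black bar at the mean of each side (n = 4). *Lamb1* is the only panel in which all left points lie above all right points, *Lama1* and *Agrn* are nearly flat, and in *Nid1* and *Nid2* the L49-3 libraries lie low while L29-3 and L46-8 slope in opposite directions.

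The nidogens varied more than the chains they bind. *Nid2* (chr14:19751265-19811787, plus strand) had normalized counts of 518 (left) and 551 (right) for L29-3, 526 and 441 for L43-5, 659 and 399.7 for L46-8, and 403 and 292 for L49-3. The left was higher in 3 of 4 embryos, with means of 526 ± 105 (SD, n = 4) against 421 ± 107, and the sides overlapped. Its log2 fold change was 0.32 ± 0.11 (SE), or 1.25-fold with an interval from 1.06 to 1.47 (edgeR, adjusted p = 0.987). The unadjusted p of the fit was 0.0112, and the exact sign-flip permutation test of the embryo ratios gave 0.25, two-sided. *Nid2* was the only one of the 10 past the study's threshold, which 3.05% of all genes tested passed in either direction and 1.63% with the left higher. The call rested on L46-8. Without that embryo the fold was 1.14 with a p of 0.0802, and without the pairing by embryo the p was 0.0812.

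Exons of *Nid2* overlap those of *Rtraf*, a gene on the opposite strand, by 437 bases. *Rtraf* had normalized counts of 255 (left) and 313 (right) for L29-3, 236 and 268 for L43-5, 228 and 280 for L46-8, and 303 and 299 for L49-3. Its log2 fold change of -0.20 ± 0.08 (SE) had the opposite sign to that of *Nid2* (edgeR, unadjusted p of 0.0327, adjusted p = 0.987). Whether the counting used the strand is not stated, so reads of the shared bases cannot be assigned with certainty.

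*Nid1* (chr13:13437551-13512269, plus strand) was the most variable of the 10, spanning 3.69-fold over the libraries. Its normalized counts were 147 (left) and 233 (right) for L29-3, 183 and 158 for L43-5, 193 and 97.7 for L46-8, and 92.9 and 63.2 for L49-3. The left was lower in L29-3 and higher in the other 3. Over all 4 embryos the log2 fold change was 0.20 ± 0.20 (SE), or 1.15-fold with an interval from 0.844 to 1.56 (edgeR, adjusted p = 0.987). Its value depended on the embryo left out, as the fold was 1.46 with a p of 0.00557 without L29-3 and 0.961 without L46-8. Of the transcripts at least 90% identical to *Nid1* over at least 100 bases, those of *Gm2399* had 4 counts in all libraries together, and those of *Gm48682* were not analysed here.

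*Nid2* made up 82.3% ± 2.43 (SD, n = 4) of the nidogen level per kb in left samples and 81.4% ± 4.73 in right samples. The difference of 0.916 ± 3.92 percentage points was smaller than the spread between embryos (exact sign-flip permutation p = 0.875, two-sided) and was -0.951 without L29-3. The lowest share, 76.1%, was that of the right of L29-3, where *Nid1* had its highest count.

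Of the proteoglycans, *Hspg2* (chr4:137468769-137570630, plus strand), which encodes perlecan, had normalized counts of 770.1 (left) and 770.0 (right) for L29-3, 700.2 and 658 for L43-5, 849.7 and 615 for L46-8, and 475 and 487 for L49-3. The libraries of L49-3 lay below the other 6, and L46-8 alone had a large difference between its sides. In edgeR the log2 fold change was 0.13 ± 0.08 (SE), or 1.1-fold with an interval from 0.967 to 1.24 (edgeR, adjusted p = 0.987).

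*Agrn* (chr4:156165290-156197488, minus strand), which encodes agrin, was the steadiest gene. Its normalized counts were 726 (left) and 677 (right) for L29-3, 649 and 682 for L43-5, 693 and 688 for L46-8, and 636 and 673 for L49-3. They spanned 1.14-fold, and the right libraries had a mean of 680.1 ± 6.40 (SD, n = 4). The log2 fold change was -0.01 ± 0.06 (SE), or 0.991-fold with an interval from 0.899 to 1.09 (edgeR, adjusted p = 0.996). The sign was positive in 3 of the 11 alternative fits.

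Counted together, 8 of the 10 genes had a positive log2 fold change, as did 48.6% of all genes tested, with a median of 0.11 beside -0.0042 over all genes tested. An unadjusted p of at most 0.05 with the left higher was reached by 2 (*Lamb1* and *Nid2*), where 2.25% of all genes reached it. After Benjamini-Hochberg adjustment over the 9744 genes, edgeR called 0 of the 10 between the sides, beside 0.0103% of all genes, and limma-voom and DESeq2 called 0 as well. Embryos did not contribute alike. In L46-8 the left was higher for 9 of the 10 genes, with a median log2 ratio of 0.46, against 7 in L43-5 (median 0.14), 6 in L29-3 (0.05) and 3 in L49-3 (-0.10). Over all genes tested, the median was at most 0.0060 from 0 in each embryo. The left was higher for 49.98% of them in L46-8, 51.05% in L43-5, 49.92% in L29-3 and 49.42% in L49-3. Summed neural tube markers were 61.4 CPM (left) and 180.3 CPM (right) in L46-8, its juxta-cardiac markers 229 and 110.1, its cardiomyocyte markers 1713 and 976, and its endothelial markers (7 of 8 tested) 541 and 513. The part of these differences in the ratios of L46-8 was not tested. Without L46-8, 0 of the 10 genes passed the study's threshold, beside 3.96% of all genes tested.

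**Figure D3:**
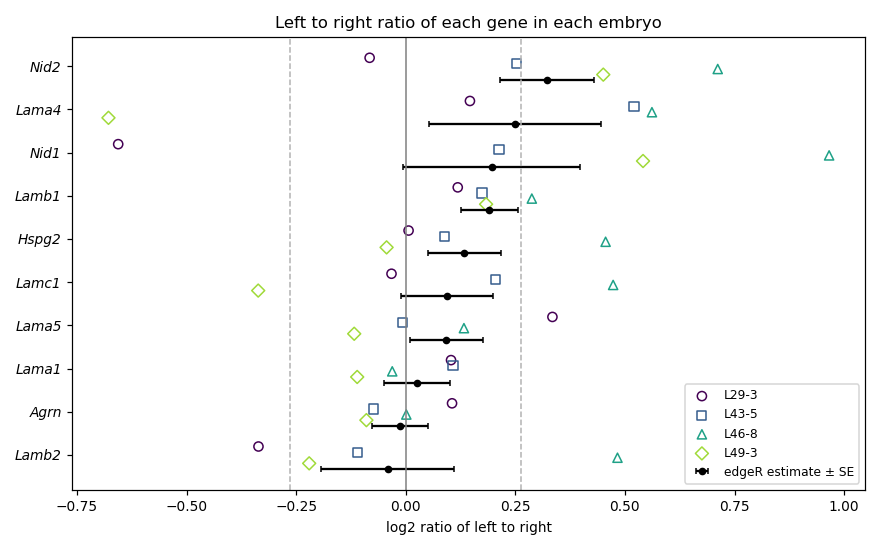
Log2 ratio of left to right of each gene in each embryo (open symbols, normalized CPM with 0.5 added) and the edgeR estimate over 4 embryos with its SE (black). Dashed lines mark a fold of 1.2 in either direction. The *Lamb1* ratios lie together between 0.12 and 0.29, the *Nid1* ratios run from -0.66 to 0.97, and L46-8 lies at or near the right end for most genes.

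Some of the genes also differed between embryos before adjustment. In this test the left and right library of an embryo stood for its repeat, because no side was measured again. With the side kept in the model, the quasi-likelihood F test of edgeR gave an unadjusted p of at most 0.05 between embryos for 4 of the 10, *Hspg2* with 0.000745, *Nid2* with 0.00806, *Nid1* with 0.0112 and *Lama4* with 0.0438, where 9.99% of all genes tested reached it. None had an adjusted p under 0.05 (*Hspg2* had 0.115), as against 0.174% of all genes. Without L49-3, 0 of the 10 reached an unadjusted p of at most 0.05, against 3 to 6 with another embryo left out. The drop was not particular to these genes. Over all genes tested, those with an adjusted p under 0.05 between embryos numbered 0 without L49-3. They numbered 46 without L29-3, 27 without L43-5 and 237 without L46-8. Both libraries of L49-3 lay below the other 6 for 3 of the 10 genes (*Lamb2*, *Nid1* and *Hspg2*), and 9.44% of all genes did so. The mean of its 2 libraries was 0.463 of the mean of the others for *Nid1*, 0.609 for *Lama4*, 0.657 for *Lamb2*, 0.662 for *Hspg2* and 0.674 for *Nid2*, but 1.06 for *Lama1*, 0.955 for *Agrn* and 0.941 for *Lamb1*. Endothelial markers summed to 409.5 and 293 CPM in L49-3 and to between 466 and 541 in the other 6 libraries. Neural tube markers summed to 262 and 367 CPM in L49-3, above the 61.4 to 201 CPM of the other 6. Cardiomyocyte markers summed to 360 and 1188 CPM in L49-3 and to between 976 and 2748 in the other 6, so the left library alone lay below them. These sums and the low juxta-cardiac and yolk sac endoderm sums given above move with the same embryo, and their part in the result was not tested.

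**Figure D4:**
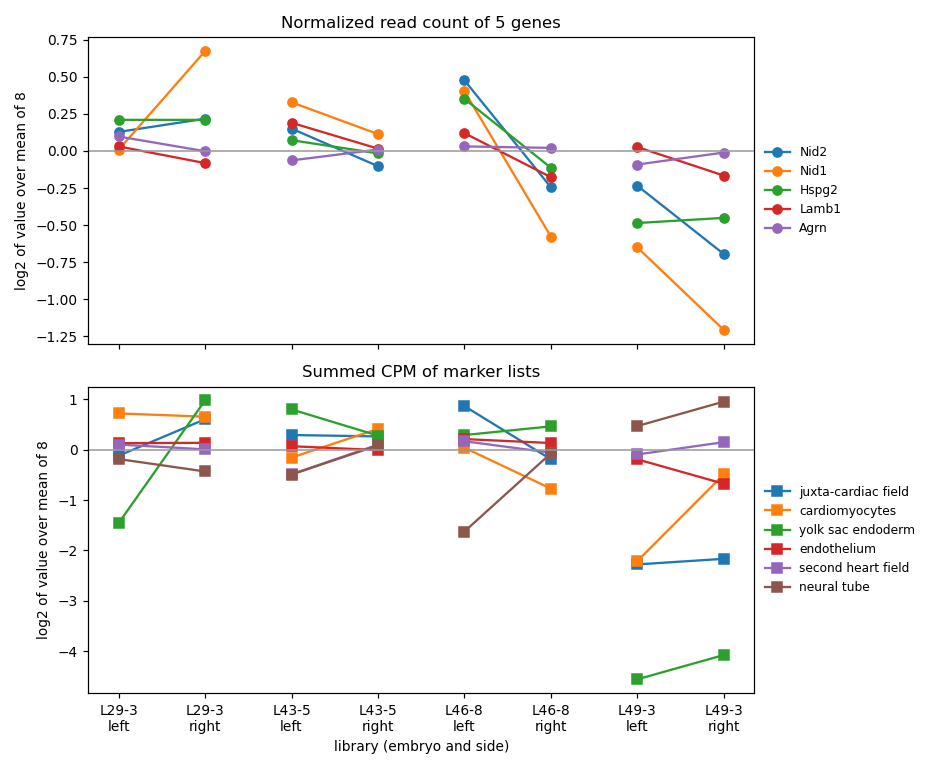
Log2 of each value over its mean of 8 libraries, for the normalized read count of 5 of the genes (top) and the summed CPM of 6 marker lists (bottom), with a line joining the libraries of an embryo. *Nid1*, *Nid2* and *Hspg2* lie below their means in both libraries of L49-3, as do the juxta-cardiac field, cardiomyocyte, endothelium and yolk sac endoderm lists, whereas *Agrn* and *Lamb1* stay close to theirs.

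Several of the genes varied together over the libraries and a few did not. Pearson's r of log2 CPM over the 8 libraries, given as a description because the libraries share embryos and depth, was above 0.8 for 9 of the 45 pairs, the highest being *Lamb2* with *Hspg2* (0.93), *Lama4* with *Lamc1* (0.93) and *Nid1* with *Nid2* (0.92). *Lama1* ran against the nidogens, with r of -0.73 with *Nid1* and -0.63 with *Nid2*, and had a negative r with each of the other 9 genes. Outside the group, the genes tested whose log2 CPM was most like the mean z score of the 10 were *Svil* (r = 0.976), which encodes an actin-bundling protein of the plasma membrane, *Fam120a* (0.975), *Add1* (0.972), an adducin of the membrane skeleton, *Cacna1d* (0.970), a calcium channel subunit, and *Lta4h* (0.970), a leukotriene hydrolase. *Svil* had normalized counts of 214 (left) and 187 (right) for L29-3, 172 and 169 for L43-5, 202 and 124 for L46-8, and 89.8 and 109.7 for L49-3.

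The genes most like *Nid2* were *Trabd2b* (r = 0.986), a metalloprotease that acts on WNT proteins, *Bcl6b* (0.985), a transcriptional repressor, *Adamts1* (0.976), a protease of the extracellular matrix, *Epha7* (0.974), an ephrin receptor, and *Hs6st2* (0.971). *Trabd2b* had normalized counts of 77.0 (left) and 82.9 (right) for L29-3, 67.8 and 61.4 for L43-5, 115 and 49.5 for L46-8, and 54.2 and 33.2 for L49-3. It was chosen by its r with *Nid2* over these same libraries, so a shared direction between the sides is no separate result.

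Of 70 genes of the wider basement membrane and its receptors, in 7 lists, 54 were tested. Past the study's threshold were 2 with the left higher and 0 with the right higher, beside 3.05% of all genes tested, and 0 had an adjusted p under 0.05 in edgeR, with 5 at an unadjusted p of at most 0.05, which 4.36% of all genes tested reached. The median log2 fold change over the 54 was 0.07, with 40 positive, beside 48.6% of all genes tested. The first of the 2, from 16 tested genes of heparan sulfate synthesis and editing, was *Hs6st2*, a sulfotransferase that modifies heparan sulfate chains, with normalized counts of 131 (left) and 126 (right) for L29-3, 140.2 and 118 for L43-5, 154 and 96.4 for L46-8, and 94.4 and 69.8 for L49-3, with the left above the right in each of the 4 embryos. Its log2 fold change was 0.33 ± 0.12 (SE; edgeR, unadjusted p of 0.0214, adjusted p = 0.987).

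The second, from 11 tested other basement membrane proteins, was *Smoc1*, which encodes a calcium-binding protein of basement membranes that modulates BMP signaling. It had normalized counts of 197 (left) and 152 (right) for L29-3, 208 and 167 for L43-5, 212 and 159 for L46-8, and 265 and 268 for L49-3. Its log2 fold change was 0.27 ± 0.10 (SE; edgeR, unadjusted p of 0.015, adjusted p = 0.987), and its libraries of L49-3 were the highest, unlike those of the laminin linkers.

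Both calls depended on the fit. DESeq2, edgeR without the pairing and the fit without L46-8 each left 0 of the related genes past the threshold. Of all genes tested, 0.61%, 2.39% and 3.96% passed it in these fits. *Smoc1* also fell short without L29-3 and without L43-5, whereas *Hs6st2* passed in both. In the main edgeR fit the other 3 genes with an unadjusted p up to 0.05, given in parentheses, had folds under 1.2 and were higher on the left. They were *Frem2* (0.0125), a protein of the embryonic epithelial basement membrane, *Ext1* (0.0468), a heparan sulfate polymerase, and *Vcl* (0.0472), which encodes vinculin. They are named because the list holds so few, after their values were seen.

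Among the receptors of laminin and agrin, 0 of 7 tested passed the threshold, and log2 fold changes ran from -0.14 to 0.17. The highest were *Rpsa*, a ribosomal protein also known as a laminin receptor, with 2655 ± 382 normalized counts for left libraries (SD, n = 4) and 2901 ± 289 for right ones, and *Itgb1*, the common beta subunit of laminin-binding integrins, with 715 ± 98.2 and 679 ± 50.2. *Rpsa* has many processed copies in the mouse genome, so its count is uncertain.

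The basement membrane collagens, which nidogen joins to laminin, had the narrowest range of log2 fold changes of the lists. None of 5 tested passed the threshold and their log2 fold changes ran from -0.05 to 0.05. *Col18a1* had 1344 ± 104 normalized counts for the left and 1387 ± 55.0 for the right, and *Col4a1* had 1174 ± 57.3 and 1131 ± 102.

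None of 8 tested genes for the glycosylation of dystroglycan, the step that lets it bind laminin, agrin and perlecan, passed the threshold, with log2 fold changes from -0.06 to 0.24. Of these, *Pomgnt1* had 96.1 ± 12.4 normalized counts for the left and 90.8 ± 8.29 for the right. Of 7 tested cytoplasmic linkers of adhesions, 0 passed, the highest being *Tln1*, which encodes talin, with 515 ± 71.5 (left) and 473 ± 62.0 (right), and *Fermt2*, a kindlin, with 388 ± 58.4 and 376 ± 55.1. Exons of *Vcl*, *Tln1* and *Pomgnt1* overlap those of genes on the opposite strand by 2090, 360 and 641 bases.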

How the data were processed

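Polyadenylated RNA of the left and right heart field of 4 embryos was sequenced as 8 libraries. Reads in pairs were mapped by the authors to GRCm38 (Hisat2), duplicates were dropped, and the raw counts per gene from featureCounts were deposited. The versions of these tools and the use of strand are not given in the sources used here. Removing duplicates can lower the counts of abundant genes.

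Symbols, positions and lengths were taken from GENCODE vM21 of GRCm38, which matched 48144 of 48526 identifiers. The filter of the study, a DESeq2-normalized count of 20 or more in 4 or more libraries, kept 9744 genes. These were fitted in edgeR 4.0.16 (R 4.3.3) by side, blocked by embryo, with TMM and the quasi-likelihood test. P-values were adjusted by Benjamini-Hochberg over all genes tested. The SE is the log2 fold change over the square root of the F statistic. The threshold on fold and p was that of the study, applied here to 1 fit at a time. The study's own list took genes past it by LimmaVoom, by DESeq2 or by edgeR, so the counts are not alike. Levels and ratios used TMM-scaled CPM, with 0.5 added for log2. Shares were compared by exact sign-flip permutation over embryos. Near-identical transcripts were sought with BLAST 2.17.0. Scripts were tested on simulated counts.

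The left and right library of a number come from the same animal and are therefore paired. Their deviations from the side means had correlations of 0.165, 0.19, -0.0158 and 0.437 in L29-3, L43-5, L46-8 and L49-3. Between a left and a right of different embryos the correlations ran from -0.389 to 0.255. The left of L29-3 had 0.191 with the right of L43-5, and the left of L46-8 had 0.255 with the right of L29-3. Both exceed the value within the embryo, so the pairing rests on the labels. No library repeated another, as chi-square per degree of freedom was at least 1.93 for any 2. P-values rest on 4 embryos.

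All 10 genes are described, together with each related gene past the threshold (in a list with none, the 2 of highest mean level) and the 5 genes most like the group and 5 most like *Nid2*. Lists were other laminin chains, receptors, collagens, other basement membrane proteins, dystroglycan glycosylation, heparan sulfate synthesis and editing, and cytoplasmic linkers. Members and lists were chosen with earlier results of these data known. Markers of second heart field, juxta-cardiac field, cardiomyocytes, endothelium, foregut endoderm, yolk sac endoderm, surface ectoderm, neural tube, paraxial mesoderm, neural crest and primitive blood were summed. The fits were repeated with library size alone, with DESeq2 size factors, without a filter, with 10 or more counts in each library, without the embryo block, and with DESeq2 1.42.0, limma-voom (limma 3.58.1), other gene lengths or each embryo left out. The other experiments of the study were not analysed here, and some genes of the lists and a promoter motif are not reported here.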

Additional observations from a re-analysis of the deposited data

How the results depend on the processing

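Under 11 alternatives to the fit between sides, *Nid2* had a positive log2 fold change in 11 and passed the study's threshold in 9, with an adjusted p from 0.0245 to 1.0. With no filter on low counts (23873 genes), 1 of the 10 genes (*Nid2*) had an adjusted p under 0.05 between sides, beside 34 of all genes. Past the threshold were 5 related genes (*Hs6st2*, *Fbln2* and *Smoc1* higher and *Lama2* and *Ntn4* lower on the left), beside 687 or 2.88% of all genes. *Lama2* had at most 9 raw counts in any library and *Ntn4* at most 6. *Fbln2* had 28.7 normalized counts in the left of L43-5 and at most 13.9 in any other library. Between embryos, 4 of the 10 differed (*Lamc1*, *Hspg2*, *Nid2* and *Nid1*), beside 641 of all genes. In the main fit these counts over all genes were 1, 297 and 17. The cause was not tested. Without the replicate block, 0 of the 10 genes and 0 related genes passed the threshold, beside 2.39% of all genes, and the log2 fold change of *Nid2* was 0.32 with a p of 0.0812. Leaving out the block changed no adjusted call between sides among the 10 genes and the related lists (over all genes, 1 with the block and 0 without). DESeq2 left 0 related genes past it, and all genes past it fell from 297 to 59. Leaving out 1 embryo, 0 to 2 of the 10 genes passed the threshold (*Nid1* and *Nid2* without L29-3, *Lama4* and *Nid2* without L49-3, 0 without L46-8), as did 0 to 4 related genes (4 without L29-3, 1 without L43-5), and 0 to 3 of the 10 differed between embryos (3 without L46-8, *Hspg2*, *Nid2* and *Nid1*). Of all genes tested, 3.61% passed the threshold without L29-3, 3.52% without L43-5, 3.96% without L46-8 and 2.86% without L49-3. In the same order, 46, 27, 237 and 0 of all genes differed between embryos, against 17 in the main fit. Signs of the log2 fold change differed with the embryo left out for *Agrn* (from -0.051 to 0.011, with 0.0098 without L49-3, and 0.000925 with no filter), *Lama1* (-0.0074 to 0.063), *Lamb2* (-0.22 to 0.074), *Lamc1* (-0.027 to 0.21) and *Nid1* (-0.057 to 0.54). The left minus right difference in the *Nid2* share was -0.951 percentage points without L29-3 and 0.916 with all embryos. It ran up to 2.05 over the embryos left out, the *Lama1* share from -2.09 to -0.233, and the *Lamb1* share from 1.0 to 3.61. The longest coding transcript, a length chosen after seeing the data, gave differences of -1.04, 1.45 and 0.948 for the 3 shares.

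Depth limits *Lama4*, with 18 counts in its lowest library, more than the others, and the duplicates removed before deposit limit the total to about 1916000 counts at the median. With 4 pairs, a sign-flip p cannot fall below 0.13, so the tests of shares cannot pass 0.05. The 95% intervals of *Lama4*, *Lama5*, *Lamb2*, *Lamc1*, *Nid1* and *Hspg2* hold both 1-fold and 1.2-fold, so these data do not tell the sizes apart for them. The markers that set L49-3 and L46-8 apart were measured in the same libraries, and tissue composition and expression per cell cannot be told apart.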

Other observations

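Foregut endoderm, whose epithelium rests on a laminin sheet, had 5 of 6 markers tested, with summed levels of 92.9 to 146 CPM over the 8 libraries. Surface ectoderm, another epithelium on a basement membrane, had 3 of 6 tested and 103 to 195 CPM. Paraxial mesoderm (5 of 6 tested) summed to between 187 and 341 CPM and neural crest (1 of 5 tested) to between 96.6 and 176 CPM. In L46-8, where 9 of the 10 basement membrane genes were higher on the left, the left and right sums were 104 and 92.9 CPM for foregut endoderm, 176 and 117 for neural crest, 139.9 and 195 for surface ectoderm, and 252 and 341 for paraxial mesoderm. The neural crest sum rested on *Twist1*, its only tested marker, with 308.5 (left) and 181.5 (right) normalized counts in L46-8. The untested *Sox10*, *Foxd3*, *Tfap2b* and *Dlx2* had at most 15.2 there and were lower on the left. None of the markers of these 4 lists passed the study's threshold. Their part in the levels of the 10 genes was not tested.

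The 10 genes together took 0.231% (left) and 0.224% (right) of all counts for L29-3, 0.225% and 0.207% for L43-5, 0.241% and 0.188% for L46-8, and 0.175% and 0.177% for L49-3. The highest and the lowest share were thus those of the left of L46-8 and the left of L49-3. Summed per kb of exon, the nidogens exceeded the gamma chains in the 8 libraries. None of 33 groups of 4 values (left libraries, right libraries and left to right ratios of each gene, and the differences in the 3 shares) held a value that Dixon's test sets apart at its 95% limit.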
